A study of Triticum aestivum with 15 samples.

Results

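Genes for transport, cell wall and cell structure were followed across 5 wheat lines that differ in cytoplasm and nuclear background. The set comprised 40 probe sets of 61179 on the array. They are the entries of the study's list of changed probe sets whose functional class begins with transport, cell wall, cell or development, without the hexose transporter STP13 and without 5 entries located to the chloroplast. That list was chosen by the changes measured in TH237 against T20, in T183 against Chris and in T195 against Chris, so these 3 differences are described for the members and are not tested. By class, 20 members belonged to transport, 9 to cell wall, 4 to cell organisation and 7 to development.

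An alloplasmic line carries the cytoplasm, and with it the chloroplasts and mitochondria, of another species, and the euplasmic control carries the nucleus in its own cytoplasm. TH237 holds the cytoplasm of the wild barley Hordeum chilense H7 in the nuclear background of the bread wheat T20 (2 backcrosses), and T20 is its control. T183 holds the cytoplasm of Aegilops uniaristata (plasmon N) and T195 that of Aegilops squarrosa, also called Ae. tauschii (plasmon D), both in the background of cv. Chris after 10 backcrosses, and Chris is the control of both. Each line gave 3 arrays, 15 in all, from the second fully expanded leaf of 14 day old seedlings bulked per pot. The T20 background held 1 alien cytoplasm and the Chris background held 2 others, so that neither background held an alien cytoplasm of the other. Signals are linear MAS 5.0 intensities, which compare lines within a probe set and not levels between probe sets. Differences are given as log2(signal + 16) with the standard error (SE) of one linear model of the 15 arrays, and a signal is called dim in a line when it lay below the 55th percentile of each of that line's arrays.

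Membrane transporters move nitrate, peptides, amino acids, phosphate, sugars and water between cell compartments, between cells and into the xylem and phloem, and most of them belong to large families with different substrates. The wall around each plant cell is built of cellulose, hemicelluloses such as the arabinoxylans and mixed-linkage glucans of grasses, and structural proteins such as extensins, and it is trimmed by hydrolases while leaves grow. Nitrate and phosphate carriers of the leaf load and store ions, and sugar exporters and amino acid permeases move the products of photosynthesis and of protein turnover out of ageing leaves. Wheat is hexaploid, and a probe set can read several homoeologous copies of a gene, in particular where its name ends in x_at, s_at or a_at. In leaf tissue as a whole, fewer cells of a type and less RNA per cell cannot be told apart.

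The labelled leaf tissue was checked on markers of the array's annotation. The 3 probe sets of the photosystem II proteins PsbO and PsbP were bright on every array, with summed signals of 107945 to 143382 in TH237, 86619 to 113486 in T20, 26432 to 40942 in T183, 25634 to 43810 in T195 and 40796 to 72648 in Chris. Of 12 endosperm probe sets 10 were dim in every line, and no floral marker was matched. The leaf markers thus stood higher on the arrays of T20 and TH237 than on those of the Chris background, and their part in the differences between the backgrounds given here was not tested. Median signals per array ran from 67.3 to 94.9, and R-squared between replicates of a line ran from 0.915 to 0.939. A probe set was tested when its signal passed the 55th percentile on 3 or more of the 15 arrays, which kept 31555 probe sets and 39 of the 40 members. The exception was 1 leucine-rich repeat (LRR) extensin.

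In TH237 the transporters and structural genes stood apart from T20 in both directions, with 23 of the 40 members higher and 17 lower. Amino acid transporter probe sets (3 of 3, 2 of them for AAP4) were higher in TH237. So were the probe sets annotated as anion channels (2 of 2, both for CLC-A) and the wall hydrolases (2 of 2). ABC transporters (3 of 3) were lower, and the peptide and nitrate transporters of the POT family were split (1 higher, 3 lower). Among the 39 members kept, 18 were at least 2-fold higher in TH237 than in T20 without overlap of the 3 and 3 arrays, and 15 were at least 2-fold lower. Over all probe sets kept, these shares were 2.24% higher and 1.71% lower. Since the members were selected on this difference, nothing is read from their share. The TH237 minus T20 differences ran from -2.41 for the LRR extensin of AT4G13340 to 4.89 for the LRR extensin of AT3G19020, and the median size was 1.43 over the members and 0.23 over all probe sets kept. Recomputed from the deposited signals, 34 members passed a 2-fold difference in at least 1 of the 3 comparisons. Just inside the limit lay AP1 (1.01) and a senescence-associated protein (1.03), and just outside it lay the POT transporter of AT1G62200 (0.99), OPT4 (0.98), APG (0.93), ATH16 (0.91), COBRA (0.84) and annexin 1 (0.59, in T195 against Chris).

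**Figure D1:**
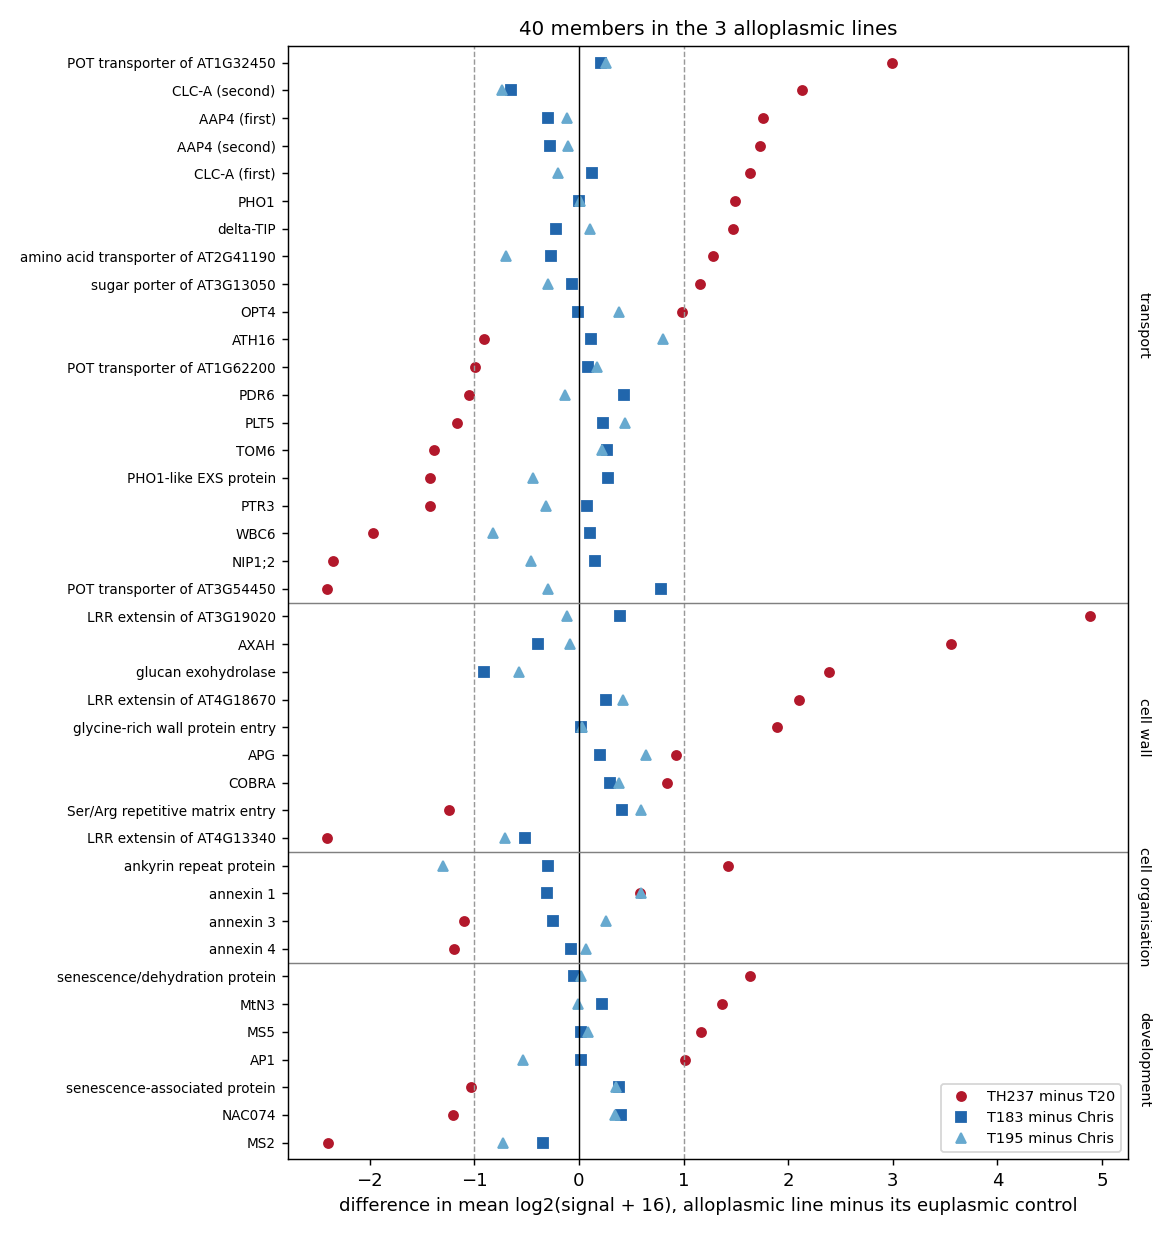
Difference in mean log2(signal + 16) between each alloplasmic line and its euplasmic control for the 40 members, grouped by class, with circles for TH237 minus T20, squares for T183 minus Chris, triangles for T195 minus Chris and dashed lines at 2-fold. TH237 lies past 2-fold on both sides for most members, while T183 and T195 lie inside the dashed lines for all members except the ankyrin repeat protein in T195 (-1.30).

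Of the 4 peptide and nitrate transporters of the POT family (proton-coupled carriers), 1 was higher in TH237 than in T20 and 3 were lower. The POT transporter of AT1G32450, in Arabidopsis the carrier NRT1.5 that loads nitrate into the xylem, had signals of 1702, 1619 and 1636 in TH237, against 211, 193 and 177 in T20. On the other arrays it read 1561, 862 and 792 in T183 and 1423, 803 and 1027 in T195, against 1214, 924 and 606 in Chris. T20 alone was low, below every other array, whereas the 3 TH237 arrays lay above the highest array of the Chris background. The difference was 2.99 ± 0.29 (TH237 minus T20, SE). Between the controls the transporter was lower in T20 than in Chris by 2.10 ± 0.29 on the log2 scale (limma adjusted p 2.27e-04).

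The POT transporter of AT3G54450 had signals of 12.5, 41.9 and 12.0 in TH237, against 126, 187 and 223 in T20. Its values were 217, 47.9 and 70.1 in T183 and 71.4, 56.0 and 5.75 in T195, against 80.7, 17.3 and 61.9 in Chris. TH237 was low and did not overlap T20, but the probe set was dim in TH237, T195 and Chris, and the 9 arrays of the Chris background overlapped both lines. With dim signals raised to the 55th percentile of their array it was at least 1.53-fold lower in TH237 than in T20, beside a fitted -2.41 ± 0.59. Against Chris it was at least 1.7-fold higher in T20, and the fitted 1.59 ± 0.59 was not called (limma adjusted p 0.0926). The remaining POT members were PTR3, in Arabidopsis a peptide transporter induced by wounding, and the transporter of AT1G62200. PTR3 ran from 355 to 561 in TH237, 1104 to 1561 in T20 and 829.9 to 1774 on the 9 arrays of T183, T195 and Chris, a TH237 minus T20 difference of -1.43 ± 0.26. The transporter of AT1G62200 ran from 196 to 261 in TH237, 368 to 553 in T20 and 369 to 608 on the 9 arrays of T183, T195 and Chris, a difference of -0.99 ± 0.19. For both, T20 overlapped the Chris background and all TH237 arrays lay below it.

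OPT4, an oligopeptide transporter of the OPT family, had signals of 1178, 928 and 1399 in TH237, against 545, 602 and 580.4 in T20. The other arrays gave 1319.8, 2506 and 2414 in T183 and 2609.6, 2356 and 2994 in T195, against 1797, 2341 and 1947 in Chris. T20 was the lowest line without overlap, and TH237 lay between T20 and the Chris background, except that its highest array passed the lowest T183 array. The difference was 0.98 ± 0.23 for TH237 minus T20, and OPT4 was lower in T20 than in Chris by 1.78 ± 0.23 (limma adjusted p 1.49e-04).

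All 3 amino acid transporter probe sets were higher in TH237. Both AAP4 probe sets read the amino acid permease of AT5G63850, a proton symporter that in Arabidopsis carries many amino acids, and they belong to 1 cluster, so that they are not independent of each other. The first AAP4 probe set had signals of 12675, 14050 and 16930 in TH237, against 5086, 3960.2 and 3834 in T20. Its other arrays read 3847, 5321 and 4070.1 in T183 and 5775, 5246 and 3942 in T195, against 4622, 6624 and 4993 in Chris. The second AAP4 probe set had signals of 11995, 13459 and 17251 in TH237, against 4774, 4261 and 3736 in T20, and 3673, 5081 and 3977 in T183 and 5237, 5243 and 3841 in T195, against 4191, 6497 and 4822 in Chris. In both, the 3 TH237 arrays stood above all 12 other arrays and the remaining 4 lines overlapped. The differences were 1.76 ± 0.21 and 1.73 ± 0.21 for TH237 minus T20, and -0.33 ± 0.21 and -0.26 ± 0.21 for T20 minus Chris, the last 2 not called (limma adjusted p 0.336 and 0.468). The amino acid transporter of AT2G41190 ran from 1443 to 1719 in TH237, 523 to 713 in T20 and 201 to 547 on the 9 arrays of T183, T195 and Chris, a TH237 minus T20 difference of 1.28 ± 0.21, with TH237 above all other arrays.

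CLC-A, in Arabidopsis the nitrate and proton exchanger that stores nitrate in the vacuole, was read by 2 probe sets of different clusters, and both were higher in TH237. The first CLC-A probe set had signals of 926, 1199.6 and 914 in TH237, against 252, 262 and 463 in T20. It read 91.9, 156 and 111 in T183 and 99.0, 113 and 65.8 in T195, against 60.8, 119.6 and 159 in Chris. The lines were ordered TH237, T20 and then the Chris background, with no overlap between these 3. The differences were 1.63 ± 0.31 for TH237 minus T20 and 1.43 ± 0.31 for T20 minus Chris (limma adjusted p 0.0078, called higher in T20). The second CLC-A probe set had signals of 436, 431 and 359.8 in TH237, against 58.0, 83.6 and 106 in T20. Its other values were 5.53, 51.0 and 70.3 in T183 and 68.8, 21.5 and 16.7 in T195, against 44.3, 75.5 and 71.6 in Chris. Only TH237 was bright, and T20, T183, T195 and Chris were dim. It was at least 3.85-fold higher in TH237 than in T20, beside a fitted 2.13 ± 0.46, and T20 minus Chris was 0.30 ± 0.46 (not called, limma adjusted p 0.732). Whether the 2 probe sets differ in T20 against Chris was not tested.

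PHO1, which in Arabidopsis exports phosphate to the xylem, had signals of 2706, 2505 and 2643 in TH237, against 1183, 863 and 765 in T20. The Chris background read 1583, 2324 and 2042 in T183 and 2565, 1679.9 and 1796 in T195, against 2175, 2234 and 1547 in Chris. T20 was the lowest line without overlap, and TH237 lay at the upper end of the Chris background. The difference was 1.49 ± 0.22 for TH237 minus T20, and PHO1 was lower in T20 than in Chris by 1.08 ± 0.22 (limma adjusted p 0.00507), a difference that fell short of 2-fold without T20 replicate 3 (-0.94) and without Chris replicate 2 (-0.98). A PHO1-like EXS protein, of AT1G68740, went the other way, with 532 to 842 in TH237, 1524 to 2106 in T20 and 870.3 to 1979.6 on the 9 arrays of T183, T195 and Chris, a TH237 minus T20 difference of -1.43 ± 0.22. Only TH237 lay outside the Chris background there, below it.

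The members grouped by annotation as sugar and polyol carriers also differed in direction, and their substrates in wheat are not given by these data. PLT5, in Arabidopsis a symporter of polyols and monosaccharides, ran from 1967 to 2446 in TH237, 4540.1 to 5431 in T20 and 4843 to 7928 on the 9 arrays of T183, T195 and Chris, a TH237 minus T20 difference of -1.17 ± 0.15. The sugar porter of AT3G13050 ran from 3143 to 4637 in TH237, 1502 to 2164 in T20 and 1119 to 1907 on the 9 arrays of T183, T195 and Chris, a difference of 1.15 ± 0.23. In both, T20 overlapped the Chris background and TH237 did not. The same held for the other PLT5 probe set. In the 2 other probe sets of the sugar porter cluster T20 lay above the Chris background too. They read 3476.5 to 3830 in T20 against 1300 to 3034 there, and 1873 to 2691 against 622 to 1716.5.

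The 2 aquaporins were split as well. NIP1;2, a NOD26-like intrinsic protein, had signals of 272, 124 and 209 in TH237, against 819, 1167 and 1199.6 in T20. Its other arrays read 1095, 947 and 788 in T183 and 636, 638 and 548 in T195, against 747, 988 and 795 in Chris. All 3 TH237 arrays were below all other arrays, and T20 overlapped T183 and Chris. The difference was -2.35 ± 0.24 for TH237 minus T20, and T20 minus Chris was 0.32 ± 0.24 (not called, limma adjusted p 0.445). delta-TIP, a water channel of the vacuolar membrane, ran from 1833 to 2324 in TH237, 572 to 981 in T20 and 314 to 714 on the 9 arrays of T183, T195 and Chris, a TH237 minus T20 difference of 1.47 ± 0.30 with TH237 on top. Some other delta-TIP probe sets had T20 above the Chris background as well, with 815 to 1150 against 408 to 764 and 814 to 1058 against 384 to 719. In the rest of that cluster T20 overlapped it.

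The 3 ABC transporters, pumps driven by ATP, were lower in TH237. WBC6, of the half-size ABCG group, ran from 60.9 to 226 in TH237, 374 to 502 in T20 and 104 to 458 on the 9 arrays of T183, T195 and Chris, a TH237 minus T20 difference of -1.97 ± 0.44. PDR6, of the pleiotropic drug resistance group, ran from 94.7 to 182 in TH237, 235 to 328 in T20 and 159 to 929 on the 9 arrays of T183, T195 and Chris, a difference of -1.05 ± 0.46. For these, TH237 overlapped the wide range of the Chris background. ATH16 ran from 403 to 443 in TH237, 749 to 874 in T20 and 856 to 1887 on the 9 arrays of T183, T195 and Chris, a difference of -0.91 ± 0.16, with TH237 below all other arrays. TOM6, a small subunit of the import pore in the outer mitochondrial membrane, ran from 1541 to 1903 in TH237, 4050.3 to 4600.1 in T20 and 4449.9 to 6932 on the 9 arrays of T183, T195 and Chris, a difference of -1.38 ± 0.17, again with TH237 below all other arrays. The other TOM6 probe set kept, which is no member, did not show this. It ran from 2004 to 2250 in TH237 and 2167 to 2486 in T20, a difference of -0.13 ± 0.14, and TH237 overlapped T20 and the Chris background.

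**Figure D2:**
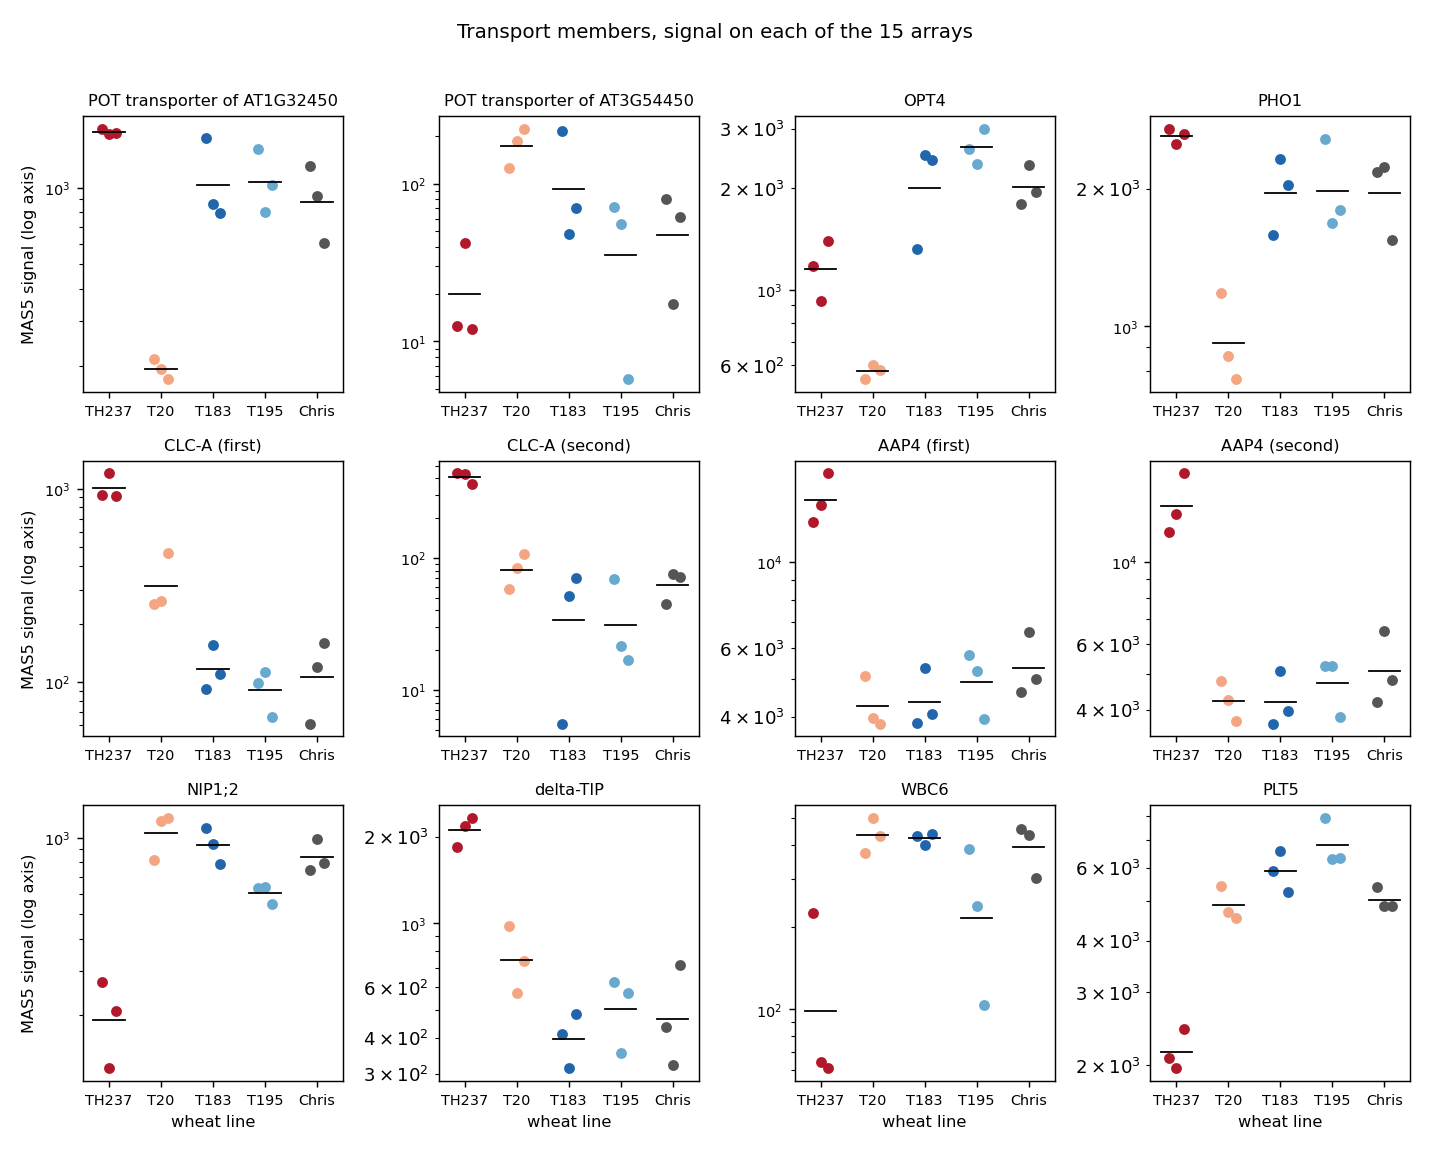
MAS 5.0 signal (log axis) of 12 transport members on each of the 15 arrays, with 1 point per array, 3 per line, and a line at the mean taken on the log2(signal + 16) scale. T20 is the low line for the POT transporter of AT1G32450, OPT4 and PHO1, whereas TH237 is the line apart for CLC-A (second probe set), both AAP4 probe sets, NIP1;2, delta-TIP and PLT5.

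Cell wall members were mostly higher in TH237 (7 of 9), and the largest difference of all members was among them. The LRR extensin of AT3G19020, of a family of wall proteins that pair a leucine-rich repeat with an extensin domain, had signals of 1081.6, 2211 and 2019.5 in TH237, against 10.4, 65.7 and 73.1 in T20. The Chris background read 35.9, 19.2 and 41.1 in T183 and 52.4, 10.5 and 4.40 in T195, against 12.5, 10.3 and 45.8 in Chris. TH237 alone was bright, and the other 4 lines were dim. It was at least 16-fold higher in TH237 than in T20, beside a fitted 4.89 ± 0.53 whose size depends on the 16 added. T20 minus Chris was 0.68 ± 0.53 (not called, limma adjusted p 0.453).

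The LRR extensin of AT4G18670 had signals of 158, 94.9 and 129 in TH237, against 13.6, 13.2 and 24.8 in T20. It read 17.6, 67.9 and 38.5 in T183 and 32.8, 37.6 and 66.0 in T195, against 21.5, 41.7 and 25.7 in Chris. TH237 again stood above all other arrays, which were dim, and the probe set was not kept by the filter. It was at least 1.18-fold higher in TH237 than in T20, beside a difference of 2.10. In contrast, the LRR extensin of AT4G13340 had signals of 93.8, 155 and 107 in TH237, against 950.4, 552 and 619 in T20. Its other arrays gave 625, 405 and 356 in T183 and 463, 552 and 235 in T195, against 446, 1008 and 606 in Chris. TH237 was the low line here, below all other arrays, and T20 overlapped Chris. The difference was -2.41 ± 0.36 for TH237 minus T20, and 0.08 ± 0.36 for T20 minus Chris (not called, limma adjusted p 0.918).

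Both wall hydrolases were higher in TH237. AXAH, an arabinoxylan arabinofuranohydrolase that in barley removes arabinose side chains, had signals of 648, 991 and 677 in TH237, against 62.0, 23.5 and 77.0 in T20. The others read 7.67, 45.2 and 12.0 in T183 and 8.08, 28.2 and 55.6 in T195, against 11.4, 56.0 and 30.1 in Chris. Only TH237 was bright. It was at least 7.15-fold higher in TH237 than in T20, beside a fitted 3.55 ± 0.48, and T20 minus Chris was 0.55 ± 0.48 (not called, limma adjusted p 0.509). The glucan exohydrolase, which releases glucose from wall glucans, had signals of 6581, 9208 and 4869 in TH237, against 1505, 977 and 1355 in T20. Its other arrays read 326, 486 and 544 in T183 and 369, 703 and 687 in T195, against 792, 1283 and 593 in Chris. TH237 was above all other arrays, T20 overlapped Chris, and all 3 T183 arrays were below Chris. The difference was 2.39 ± 0.34 for TH237 minus T20, and 0.57 ± 0.34 for T20 minus Chris (not called, limma adjusted p 0.309).

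The other wall members had smaller differences. COBRA, which in Arabidopsis orients cellulose microfibrils, ran from 3637 to 4242 in TH237, 2042 to 2286 in T20 and 2253 to 5250 on the 9 arrays of T183, T195 and Chris, a TH237 minus T20 difference of 0.84 ± 0.25. APG, annotated as an anther-specific proline-rich protein, ran from 2024 to 3481 in TH237, 1216 to 1476 in T20 and 1536 to 6245 on the 9 arrays of T183, T195 and Chris, a difference of 0.93 ± 0.42. In both, T20 was below Chris on every array and TH237 overlapped the Chris background. A glycine-rich wall protein entry ran from 706 to 852 in TH237, 138 to 242 in T20 and 202 to 368 on the 9 arrays of T183, T195 and Chris, a difference of 1.89 ± 0.24, with TH237 above all others. A Ser/Arg repetitive matrix entry ran from 123 to 253 in TH237, 391 to 550.3 in T20 and 326 to 819 on the 9 arrays of T183, T195 and Chris, a difference of -1.24 ± 0.27, with TH237 below all others.

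Of the cell organisation members, annexins bind phospholipids in the presence of calcium. Annexin 4 had signals of 87.6, 117 and 139.5 in TH237, against 346, 200.1 and 313 in T20. The Chris background read 132, 80.3 and 80.0 in T183 and 108, 145 and 76.5 in T195, against 104, 71.9 and 136 in Chris. T20 alone was high, above all other arrays, and TH237 overlapped the Chris background. The difference was -1.20 ± 0.28 for TH237 minus T20, and annexin 4 was higher in T20 than in Chris by 1.33 ± 0.28 (limma adjusted p 0.00655). Annexin 3 ran from 96.8 to 165 in TH237, 249 to 460.4 in T20 and 81.7 to 234 on the 9 arrays of T183, T195 and Chris, a TH237 minus T20 difference of -1.10 ± 0.29, and annexin 1 from 187 to 241 in TH237, 99.6 to 182 in T20 and 168 to 433 on the 9 arrays of T183, T195 and Chris, a difference of 0.58 ± 0.21. T20 minus Chris was 0.87 ± 0.29 for annexin 3 (limma adjusted p 0.0677) and -0.91 ± 0.21 for annexin 1 (limma adjusted p 0.0115), neither at 2-fold. The ankyrin repeat protein ran from 378 to 584 in TH237, 149.9 to 164 in T20 and 2.82 to 87.7 on the 9 arrays of T183, T195 and Chris, a TH237 minus T20 difference of 1.43 ± 0.32, with TH237 and T20 both above the dim Chris background.

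Development members were split in TH237, with 4 higher and 3 lower. MtN3 names the family of SWEET sugar exporters, and the member of AT5G13170 is SWEET15 in Arabidopsis, known from ageing leaves. MtN3 had signals of 603, 446 and 411 in TH237, against 242, 180.5 and 123 in T20. The Chris background read 1879.9, 1117 and 994 in T183 and 893, 1034 and 1412 in T195, against 1454, 891 and 1016 in Chris. T20 was the lowest line, TH237 came next, and both lay below every array of the Chris background. The difference was 1.37 ± 0.29 for TH237 minus T20, and MtN3 was lower in T20 than in Chris by 2.53 ± 0.29 (limma adjusted p 5.67e-05).

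A senescence/dehydration protein of AT3G21600 had signals of 2012, 2664 and 1707.3 in TH237, against 761, 640.4 and 598 in T20. Its other arrays read 1644, 1922 and 1586 in T183 and 1418, 2125 and 1929 in T195, against 2413, 1716 and 1347 in Chris. T20 alone was low, and TH237 overlapped the Chris background. The difference was 1.63 ± 0.23 for TH237 minus T20, and the protein was lower in T20 than in Chris by 1.40 ± 0.23 (limma adjusted p 0.0011). A senescence-associated protein of AT5G47060 ran from 1432 to 2134 in TH237, 2979.9 to 3964 in T20 and 3243 to 8224 on the 9 arrays of T183, T195 and Chris, a difference of -1.03 ± 0.26, with TH237 below all other arrays. MS2, which in Arabidopsis is a fatty acyl reductase of the pollen wall, had signals of 6.18, 2.17 and 4.48 in TH237, against 148, 85.6 and 56.1 in T20. It read 51.4, 104 and 188 in T183 and 72.8, 119 and 45.9 in T195, against 115, 156 and 135 in Chris. TH237 was low and dim on every array, and the other 4 lines overlapped. The fitted TH237 minus T20 difference was -2.39 ± 0.39, but with the dim TH237 signals raised to the 55th percentile T20 was not higher, so no fold is given. T20 minus Chris was -0.50 ± 0.39 (not called, limma adjusted p 0.449).

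MS5, annotated as a male sterility family protein, ran from 917 to 1341 in TH237, 326 to 651 in T20 and 545 to 1098 on the 9 arrays of T183, T195 and Chris, a TH237 minus T20 difference of 1.17 ± 0.27. AP1, the wheat relative of which is the vernalization gene VRN1 of the MADS family, ran from 1177 to 2110.4 in TH237, 697 to 907 in T20 and 751 to 1697 on the 9 arrays of T183, T195 and Chris, a difference of 1.01 ± 0.23. For these 2, TH237 overlapped the Chris background and T20 was below Chris on every array. NAC074, a transcription factor of the NAC family, ran from 76.0 to 151 in TH237, 205 to 310.01 in T20 and 251 to 464 on the 9 arrays of T183, T195 and Chris, a difference of -1.20 ± 0.24, with TH237 below all other arrays.

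**Figure D3:**
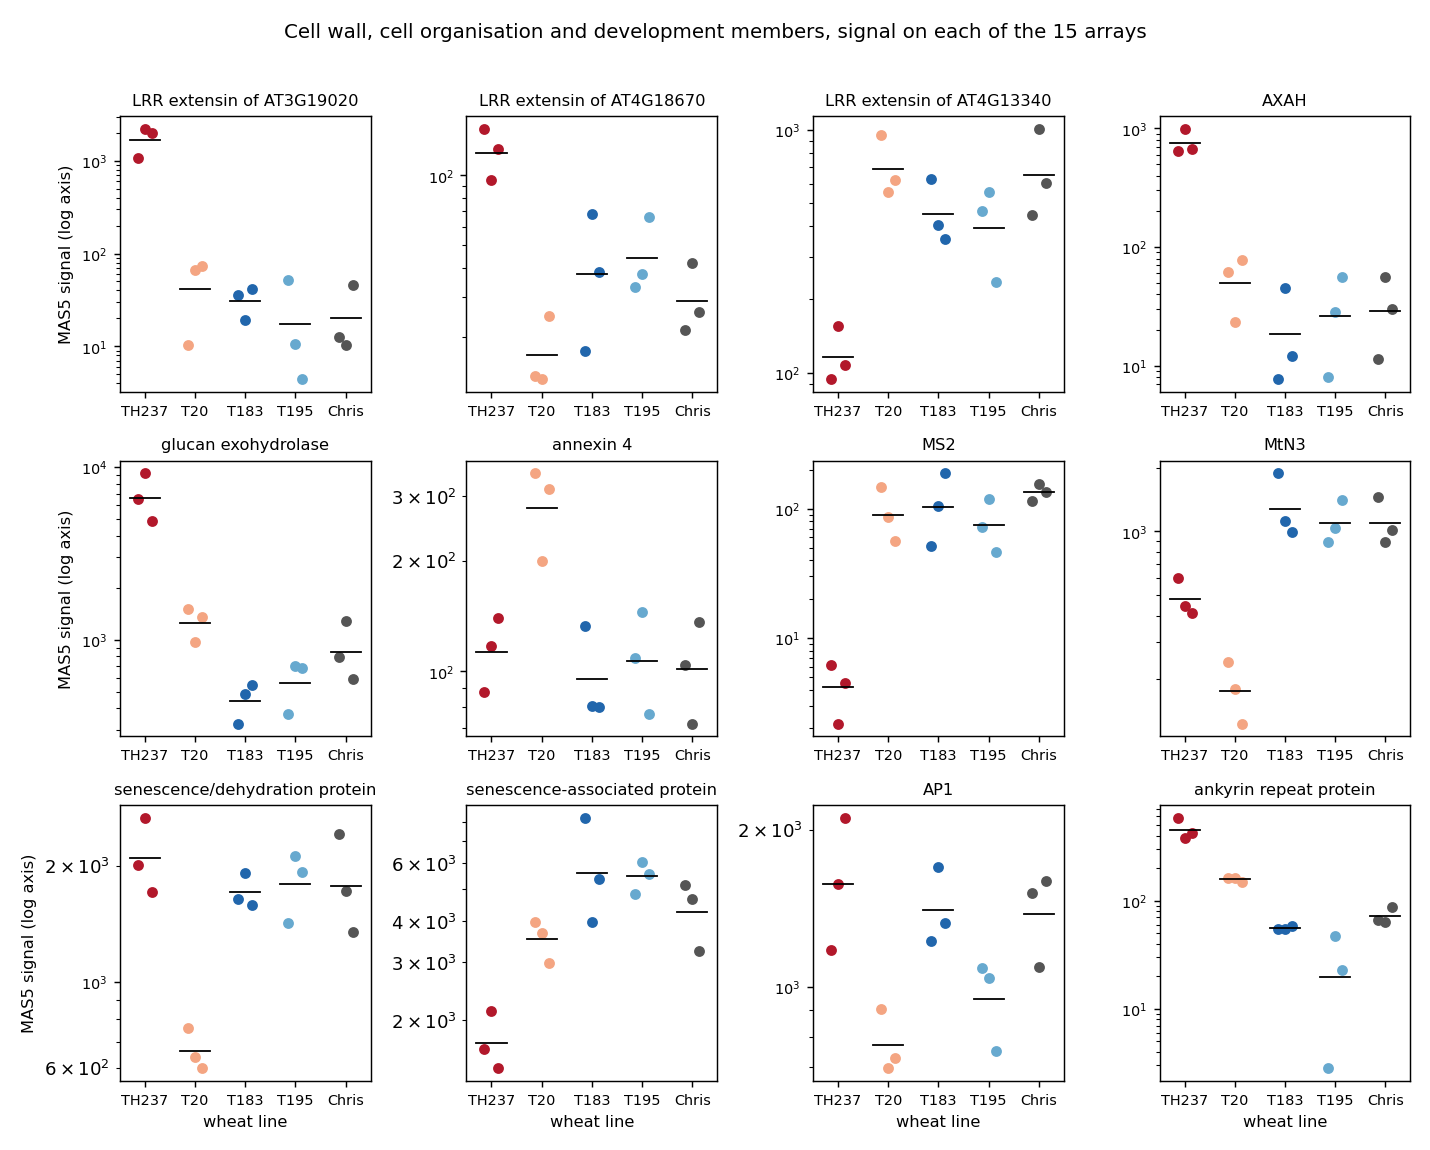
MAS 5.0 signal (log axis) of 12 cell wall, cell organisation and development members on each of the 15 arrays, with 1 point per array, 3 per line, and a line at the mean taken on the log2(signal + 16) scale. TH237 is high and alone for 2 LRR extensins, AXAH and the glucan exohydrolase, T20 is high and alone for annexin 4, and both T20 and TH237 are below the Chris background for MtN3.

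The euplasmic controls T20 and Chris differed in 7 of the 39 members kept. Higher in T20 were CLC-A (first probe set) and annexin 4, and lower in T20 were the POT transporter of AT1G32450, OPT4, PHO1, the senescence/dehydration protein and MtN3. A member was called at a limma adjusted p of at most 0.05 and at least 2-fold. This made 5.13% of the members kept higher and 12.8% lower, against 3.14% higher and 4.19% lower over all probe sets kept. At an unadjusted p of at most 0.05, without a limit on fold, 14 of 39 members and 8667 of 31555 probe sets passed. The T20 minus Chris difference was not used to choose the members, but the T20 and Chris arrays were, as the controls of the 3 comparisons that chose them. An error that lowers the T20 signals therefore raises TH237 minus T20 and lowers T20 minus Chris. All 5 members called lower in T20 were among the 22 higher in TH237 than in T20, and 0 were among the 17 lower. CLC-A (first probe set), called higher in T20, was also among the 22, and annexin 4 was among the 17. So nothing is read from the members' share. With the methods' t-test 7 members passed at its threshold before adjustment and none after it, against 2133 and 306 of all probe sets.

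By class, the median T20 minus Chris difference was 0.01 over the 20 transport members, 0.15 over the 8 cell wall members kept, 0.93 over the 4 cell organisation members and -0.56 over the 7 development members, beside 0.01 over all probe sets kept. All 7 values of the development members were below 0, from -2.53 (MtN3) to -0.03 (NAC074), and 2 of them were called. No cell wall member was called, and their values ran from -0.80 (APG) to 0.68 (LRR extensin of AT3G19020). The median size of the difference was 0.46 over the members and 0.30 over all probe sets kept. Since the T20 arrays took part in the choice of the members, nothing is read from these medians.

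**Figure D4:**
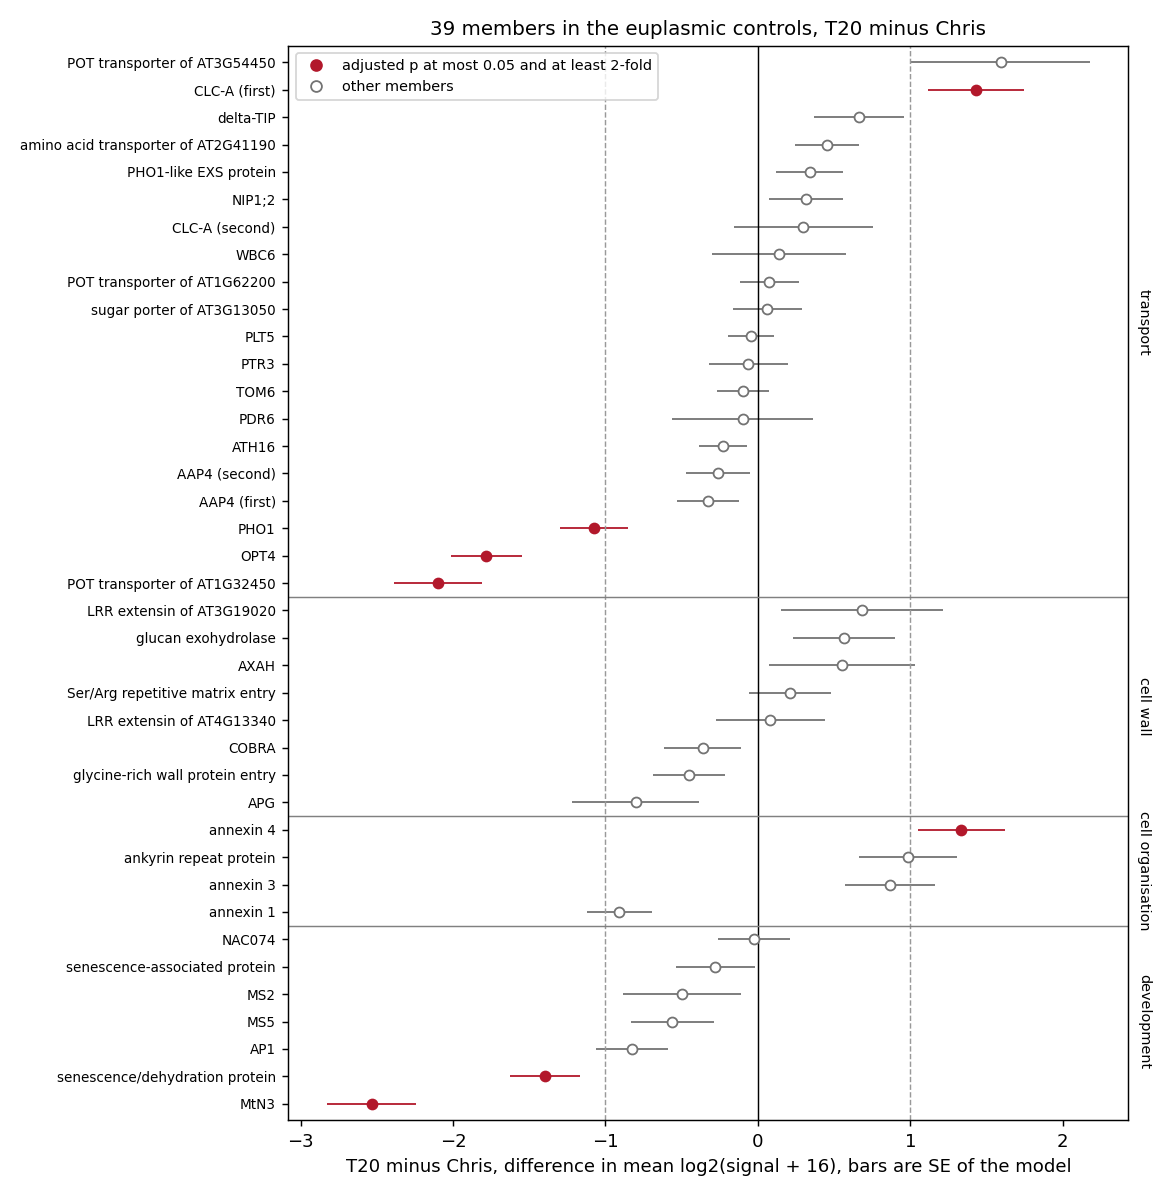
T20 minus Chris difference in mean log2(signal + 16) of the 39 members kept, grouped by class and ordered by size, with bars for the SE of the model (3 arrays per line), dashed lines at 2-fold and filled points for called members. The 7 filled points are CLC-A (first probe set) and annexin 4 on the right and PHO1, OPT4, the POT transporter of AT1G32450, the senescence/dehydration protein and MtN3 on the left.

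The mean of T20 and TH237 was also set against the mean of Chris, T183 and T195. If the spread is equal in all lines, the error of this difference is independent of that of the 3 differences that chose the members. Its p-values are not free of that choice, since both draw on the spread within the same lines. The contrast includes the TH237 arrays whose distance from T20 chose most members. It therefore holds part of the differences between alloplasmic lines and controls and does not estimate the nuclear background alone. On these arrays the cytoplasm of TH237 and any nuclear difference from T20 left after 2 backcrosses cannot be told apart. The 8 members called higher in the T20 background were both CLC-A probe sets, AXAH, delta-TIP, the glucan exohydrolase, the amino acid transporter of AT2G41190, the ankyrin repeat protein and the LRR extensin of AT3G19020, and the 4 called lower were MtN3, OPT4, MS2 and the senescence-associated protein. This was 20.5% of the members kept higher and 10.3% lower, against 6% and 5.76% over all probe sets kept, and nothing is read from the members' share. For 8 of these 12 members only TH237 lay outside the range of the Chris background, 6 higher and 2 lower, and T20 minus Chris was not called: AXAH, CLC-A (second probe set), the LRR extensin of AT3G19020, delta-TIP, the glucan exohydrolase, the amino acid transporter of AT2G41190, MS2 and the senescence-associated protein. The first 3 of these were bright in TH237 only and passed the filter through that line, so their calls are no evidence on the background. In the other 4, namely CLC-A (first probe set), the ankyrin repeat protein, MtN3 and OPT4, all T20 arrays lay outside that range. The differences were 2.27 ± 0.20 for CLC-A (first probe set, limma adjusted p 1.39e-06), -1.92 ± 0.19 for MtN3 (limma adjusted p 3.74e-06) and -1.41 ± 0.15 for OPT4 (limma adjusted p 6.52e-06). That of the ankyrin repeat protein was 2.23 ± 0.21. It was dim in T183, T195 and Chris and passed the filter only through T20 and TH237, so its call is no evidence on the background either. The summed PsbO and PsbP signals given above also differed between these backgrounds.

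Where each member of the T20 background lay was described against the range of the 9 arrays of T183, T195 and Chris. For 22 of the 39 members kept (56.4%) all TH237 arrays lay outside that range and T20 did not, against 12.7% of all probe sets kept. For 6 members (15.4%), namely PHO1, OPT4, APG, annexin 3, annexin 4 and the senescence/dehydration protein, only T20 lay outside it, against 6.69%. Both lines lay on the same side for CLC-A (first probe set), the ankyrin repeat protein and MtN3 (7.69%), against 14.6%, and on opposite sides for the POT transporter of AT1G32450. The other 7 members (17.9%) had neither line outside. Because the members were chosen for a difference between TH237 and T20, these shares describe where the 2 lines lay and nothing is read from their distance to the shares of all probe sets. The 22 members with TH237 apart comprised 13 transport, 6 cell wall and 3 development members. For the sugar porter, delta-TIP and TOM6 this placement depended on the probe set, as given above. It also did for NIP1;2 and the senescence-associated protein, whose other probe sets kept had TH237 overlapping the Chris background. Those of NIP1;2 read 200 to 326 in TH237 against 115 to 299 there, and 34.3 to 74.2 against 49.9 to 247. That of the senescence-associated protein read 27.7 to 58.5 against 51.7 to 226.

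**Figure D5:**
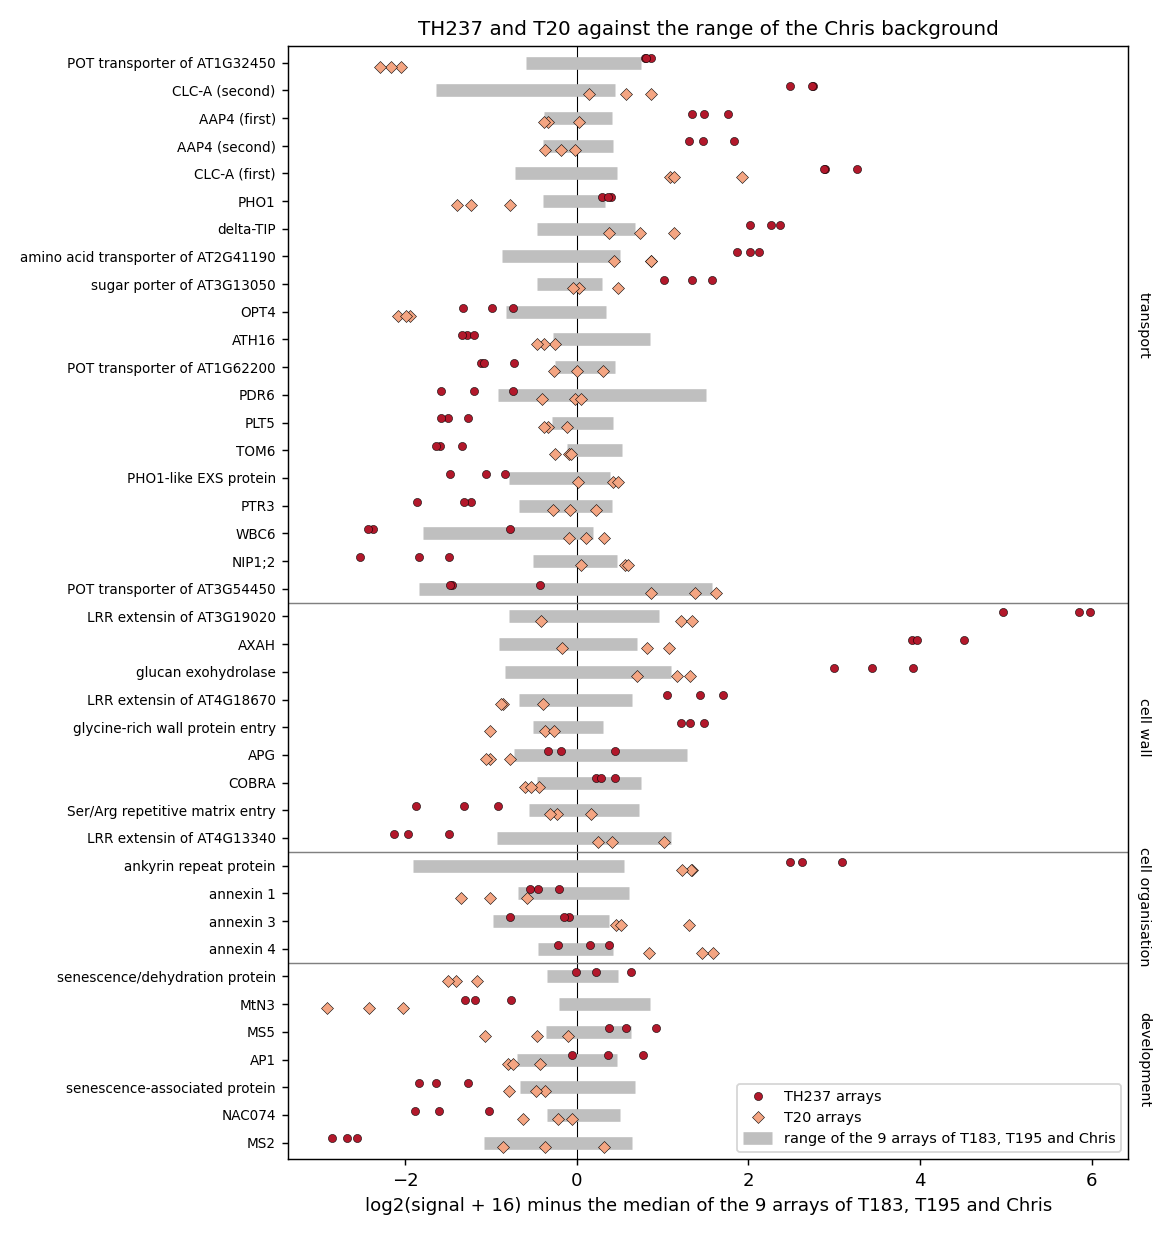
Signals of the 3 TH237 arrays (circles) and the 3 T20 arrays (diamonds) of the 40 members on the log2(signal + 16) scale, relative to the median of the 9 arrays of T183, T195 and Chris, whose range is the grey bar. TH237 alone leaves the bar for 22 of the 39 members kept, T20 alone for 6, and the POT transporter of AT1G32450 has TH237 above and T20 below it.

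In T183 and T195 all members except the ankyrin repeat protein in T195 had mean differences from Chris under 2-fold. None of the 39 members kept was at least 2-fold higher in T183 than in Chris without overlap and none was lower, against 0.317% and 0.754% of all probe sets kept, and in T195 none was higher and 1 was lower (2.56%), against 0.349% and 1.46%. The 1 member was the ankyrin repeat protein with 2.82, 47.3 and 22.8 in T195, against 66.6, 63.9 and 87.7 in Chris, where both lines were dim, so that no fold is given. It was not past 2-fold without overlap when T195 replicate 1 was left out, where CLC-A (second probe set), APG and WBC6 were instead, 3 members in all, and MS2 joined it without T195 replicate 2 (2 members). Without T183 replicate 3 or without Chris replicate 3 the glucan exohydrolase was the 1 member lower in T183. The median size of the difference was 0.25 in T183 and 0.31 in T195 over the members, and 0.17 and 0.20 over all probe sets kept. The 3 Chris arrays served as control for both lines. The list was chosen by changes in any of the 3 comparisons, so nothing is read from these counts.

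Other probe sets of the array carry the same cluster number as a member. They may read the same or a closely related transcript and can share probes with the member, which was not checked on sequences. They were not chosen by the rule, apart from 1 that is itself an entry of the study's list. There were 84 of them in 17 clusters, of which 51 fell in the single large cluster of AP1. In the other 13 clusters with a probe set kept, 23 of 23 probe sets had the sign of their member in TH237 minus T20, 15 of them at less than 2-fold, and their median size was 0.90. The 23 include the entry of the study's list, which is AXAH's second probe set. This probe set and a further one of the second CLC-A cluster were dim in every line but TH237. They passed the filter through that line, so their sign was fixed in advance. The other probe sets of the ankyrin repeat protein and of the LRR extensin of AT4G18670 also reached 3 arrays only with those of TH237. Their signs were therefore not free of the filter either. In the cluster of AP1 8 of 19 probe sets had the sign of AP1. AXAH's second probe set, itself chosen by the rule of the list, had signals of 199.96, 401 and 347 in TH237, against 75.0, 14.98 and 17.3 in T20. The 2 other NIP1;2 probe sets had TH237 minus T20 differences of -1.15 and -0.17. In T20 against Chris 6 of the 42 probe sets kept were called with limma, 3 higher and 3 lower, beside 3.14% higher and 4.19% lower over all probe sets kept. Their clusters hold members chosen with the same T20 and Chris arrays, so nothing is read from this count. In the cluster of annexins 3 and 4, which is 1 cluster, 2 probe sets were higher in T20, with T20 minus Chris differences of 1.59 ± 0.25 (adjusted p 6.44e-04) and 1.38 ± 0.29 (adjusted p 0.00553). In the cluster of annexin 1, 2 probe sets were lower in T20, with differences of -1.69 ± 0.23 (adjusted p 1.94e-04) and -1.01 ± 0.21 (adjusted p 0.00506), while the other probe sets of both annexin clusters were not called and ran from -0.51 to 0.38. The other 2 were a probe set of the sugar porter cluster, higher in T20 with 1.14 ± 0.29 (adjusted p 0.0196), and one of the senescence/dehydration protein's cluster, lower in T20 with -1.22 ± 0.30 (adjusted p 0.0165).

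Transport and structure genes outside the study's list could be named only through the gene symbols of the array's annotation, which covers 1273 probe sets, 3 of them members. They were 18 probe sets of proton pumps, channels, a xyloglucan endotransglucosylase (XTH), tubulins and profilins, of which 16 were kept. None of the 16 was called in TH237 against T20, with differences between -0.19 and 0.94 and a smallest limma adjusted p of 0.0695, and none was called in T183, in T195 or in T20 against Chris. At an unadjusted p of at most 0.05, without a limit on fold, 3 of the 16 passed in TH237 against T20 (17.9% of all probe sets kept), 0 in T183 against Chris (6.89%), 1 in T195 against Chris (11.2%), 4 in T20 against Chris (27.5%) and 9 in the contrast of the backgrounds (49%). The largest TH237 minus T20 value was that of TPC1, a cation channel of the vacuole, with mean signals of 2064 in TH237 and 1081 in T20 (0.94, limma adjusted p 0.0814). XTH, which cuts and rejoins xyloglucan in the wall, was the 1 probe set called at 2-fold in the contrast of the backgrounds, higher in the T20 background by 1.14 (limma adjusted p 0.0179), while 9 of the 16, among them HA1, TPC1 and profilins, had an adjusted p of at most 0.05 there (40.8% of all probe sets kept). The plasma membrane proton pump HA1, which drives proton-coupled carriers, had 3 probe sets with TH237 minus T20 differences from 0.18 to 0.28.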

How the data were processed

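Leaf RNA of 5 wheat lines was hybridised to 15 Affymetrix Wheat Genome arrays, 3 biological replicates per line, and lines and replicate numbers were taken from the labels. Each deposited value is a linear intensity, the signal of the MAS5 algorithm for a probe set on an array (version not given in the sources used here) that had been scaled to a 2% trimmed mean near 500, while the methods name RMA for the study's own comparisons. Of 61290 probe sets 111 controls were left out. Here log2 was taken after adding 16, so that differences of dim signals are understated, and probe sets were kept whose signal passed the 55th percentile on 3 or more arrays. One linear model of 5 groups (10 residual degrees of freedom) was fitted with limma 3.58.1 in R 4.3.3, with Benjamini-Hochberg adjustment over the 31555 probe sets kept. The code was tested on simulated data. For a bound on a fold, dim signals were raised to the 55th percentile of their array. The p-values measure the spread between these arrays.

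Only identifiers, classes, descriptions, locations in the cell and Arabidopsis loci were taken from the study's list. Every member is named. Values on each array are given for members called in T20 against Chris, for members past 4-fold without overlap in an alloplasmic comparison and for members of one Arabidopsis locus. Members, lists and tests were chosen with earlier results of these data known. The pathway words intended for other genes matched no annotated name, and the outside genes were picked by symbol after the files had been read. Alternatives covered the value added, the filter, the scaling, the block, the arrays in the model, the test, the limit on fold and leaving out single arrays.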

Additional observations from a re-analysis of the deposited data

Results flagged for a closer look

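For 9 members all TH237 arrays lay on one side of T20 while all arrays of T183 or T195 lay on the other side of Chris. The difference between these comparisons was not tested. Of the 39 members kept, 4 (10.3%) did so with T183, against 2.35% of all probe sets kept, and 6 (15.4%) with T195, against 3.25%. The ankyrin repeat protein is in both counts. All members kept had TH237 apart from T20, the difference on which most were selected, so nothing is read from these shares. Values are log2 differences of an alloplasmic line from its control. The glucan exohydrolase gave 2.39 in TH237 and -0.91 in T183. The ankyrin repeat protein gave 1.43 in TH237, -0.30 in T183 and -1.30 in T195, dim in the last 2 lines and in Chris. NAC074 gave -1.20 in TH237 and 0.40 in T183. The Ser/Arg repetitive matrix entry gave -1.24 in TH237 and 0.41 in T183. The amino acid transporter of AT2G41190 gave 1.28 in TH237 and -0.70 in T195. AP1 gave 1.01 in TH237 and -0.54 in T195. ATH16 gave -0.91 in TH237 and 0.80 in T195. PLT5 gave -1.17 in TH237 and 0.44 in T195. The POT transporter of AT1G62200 gave -0.99 in TH237 and 0.17 in T195.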

How the results depend on the processing

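The members called in T20 against Chris numbered 7 (2 higher, 5 lower) under the 5-group limma model. The count was within 1.5 times that under every alternative run except the methods' t-test, which called 0 after adjustment (0 higher, 0 lower) and 7 before it. With the filter at the 70th percentile only 1 member was called higher, since annexin 4 was not kept. Leaving out 1 array gave 6 to 8 members in all. In the contrast of the T20 and Chris backgrounds 12 members were called, 11 to 13 when 1 array was left out, and 26 at a fold limit of 1.5, 14 of them lower. At that limit 1 member differed without overlap in T183, lower, and 4 in T195, 2 higher and 2 lower. With 64 added before log2 the 1 member lower in T195 was lost, giving 0. Leaving out 1 array gave 31 to 34 members past 2-fold without overlap in TH237, 0 to 1 in T183 (0 to 1 lower) and 1 to 3 in T195 (0 to 1 higher, 1 to 2 lower). Same-numbered arrays of different lines did not deviate together on average (mean correlation of deviations -0.0046 over 30 pairs of arrays, from -0.196 to 0.219). Whether some genes share a batch with the replicate number was not tested. With the replicate number as a block 7 members were called in T20 against Chris and 12 in the contrast of the backgrounds. Of 252 recomputed T20 minus Chris values of members shown per array, 240 kept their direction and side of the threshold. The exceptions were 9 lost calls, 7 of them with the methods' t-test and 2 for PHO1 without an array, 1 gained call (the POT transporter of AT3G54450 with 64 added, adjusted p 0.0429) and 2 changes of sign for the LRR extensin of AT4G13340, to -0.15 without T20 replicate 1 and -0.18 without Chris replicate 1, within a range of -0.18 to 0.39 when 1 array was left out. Dim signals limit the folds: below the 55th percentile only a bound can be given. With 3 arrays per line, small differences may be missed.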
